A study of Mus musculus with 6 samples.

Results

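The genes described here are 10 transcription factors that mark lung mesenchyme: the T-box factors Tbx2, Tbx3, Tbx4 and Tbx5, the forkhead factors Foxf1 and Foxf2, the homeobox factors Meox2 and Prrx1, the basic helix-loop-helix factor Twist1 and the zinc-finger factor Osr1. They were chosen by name, with earlier results of these data known, as the rows whose Ensembl identifier carries the symbol. All 10 were found among the 45706 genes of the deposited table, and all 10 were expressed enough to test, among 14635 tested genes. RNA sequencing was done on mouse lung fibroblasts, grown from collagenase- and trypsin-digested lungs in serum medium and purified before use. The control group was 3 samples labelled control, and the DKK1 group was 3 samples exposed for 24 hours to 30 ng/ml of recombinant murine DKK1. DKK1 is a secreted antagonist of Wnt signalling that binds the co-receptors LRP5 and LRP6. The genotype, strain, sex and age of the mice are not given in the sources used here, and no alleles are named. The labels do not say whether the replicates came from separate animals or cultures, so the p-values measure the spread between these samples, which may be technical.

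Lung mesenchyme is built from the foregut mesoderm, where these factors act as identity and growth regulators. TBX4 and TBX5 are needed for lung bud outgrowth and act with Fgf10, the ligand that draws the airway epithelium into branches. TBX2 and TBX3 are repressors that keep mesenchymal progenitors dividing, in part by holding down cell cycle inhibitor genes and secreted Wnt antagonist genes. FOXF1 is an effector of hedgehog signals from the epithelium, and FOXF2 is its close relative. OSR1 marks early foregut and lung mesoderm, and TWIST1 and PRRX1 are regulators of mesenchymal state that are studied in fibrosis.

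Library totals ran from 22565917 to 34727102 expected counts. Against the labelled cell type, fibroblast markers were checked (Col1a1, Col1a2, Col3a1, Pdgfra, Dcn, Lum and Thy1), and their summed level was 10225 to 11726 CPM (counts scaled by the library total) in control libraries and 9633 to 11148 CPM in DKK1 libraries. That sum is mostly Col1a1 and Col1a2. Of the 7 fibroblast markers 0 were called without the block (1 had an unadjusted p under 0.05, and DESeq2 called Dcn), while with the replicate number as a block (edgeR) Dcn (1.53-fold) and Pdgfra (1.204-fold) rose and Col1a1 (0.931-fold), Col1a2 (0.917-fold) and Thy1 (0.917-fold) fell, beside 9.42% of all tested genes called in that fit. DESeq2 with the block called 4 of the 7, and the blocked edgeR fit without both replicate 2 libraries called 3. The listed markers of smooth muscle and pericytes summed to 6698 to 7449 CPM in control and 5632 to 6612 CPM in DKK1 libraries. Most of that sum was Acta2 (mean 5932 CPM in control), with Cnn1 at 563 CPM and Myh11 at 336 CPM. Des (73.8 CPM), Cspg4 (21.5 CPM), Notch3 (18.6 CPM) and Rgs5 (6.23 CPM) were lower in control. Endothelial, epithelial, mesothelial and leukocyte markers summed to between 10.9 and 113 CPM per list, and the T cell gene Cd3e was at 0 in all libraries. Replicate 3 of both groups stood apart: its summed endothelial markers were at 64.4 CPM in control and 63.0 CPM with DKK1, against 21.7 to 29.3 CPM in the other 4 libraries. Its epithelial, mesothelial and leukocyte sums were also the highest of each group. In RNA from whole cultures, fewer cells of a type and less RNA per cell cannot be told apart.

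Tbx3 was higher with DKK1, and was the only factor of the 10 that passed the test when samples were treated as unpaired (edgeR quasi-likelihood test with Benjamini-Hochberg adjustment over all tested genes, adjusted p under 0.05). Across all tested genes, 0.895% were called in that fit, 0.697% higher and 0.198% lower. When the replicate number was entered as a block, Tbx3 and Prrx1 rose and Tbx2 fell, so that 3 of 10 factors were called, beside 9.42% of all tested genes (4.96% higher and 4.46% lower). The changes were small, at 1.18-fold for Tbx3, 1.147-fold for Prrx1 and 0.911-fold for Tbx2. The other 7 factors were called in neither fit, and their fold changes lay between 0.935 for Osr1 and 1.08 for Foxf1 without the block. The median log2 fold change of the 10 factors was 0.05, with 6 above and 4 below 0, beside a median of -0.0009 over all tested genes.

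**Figure D1:**
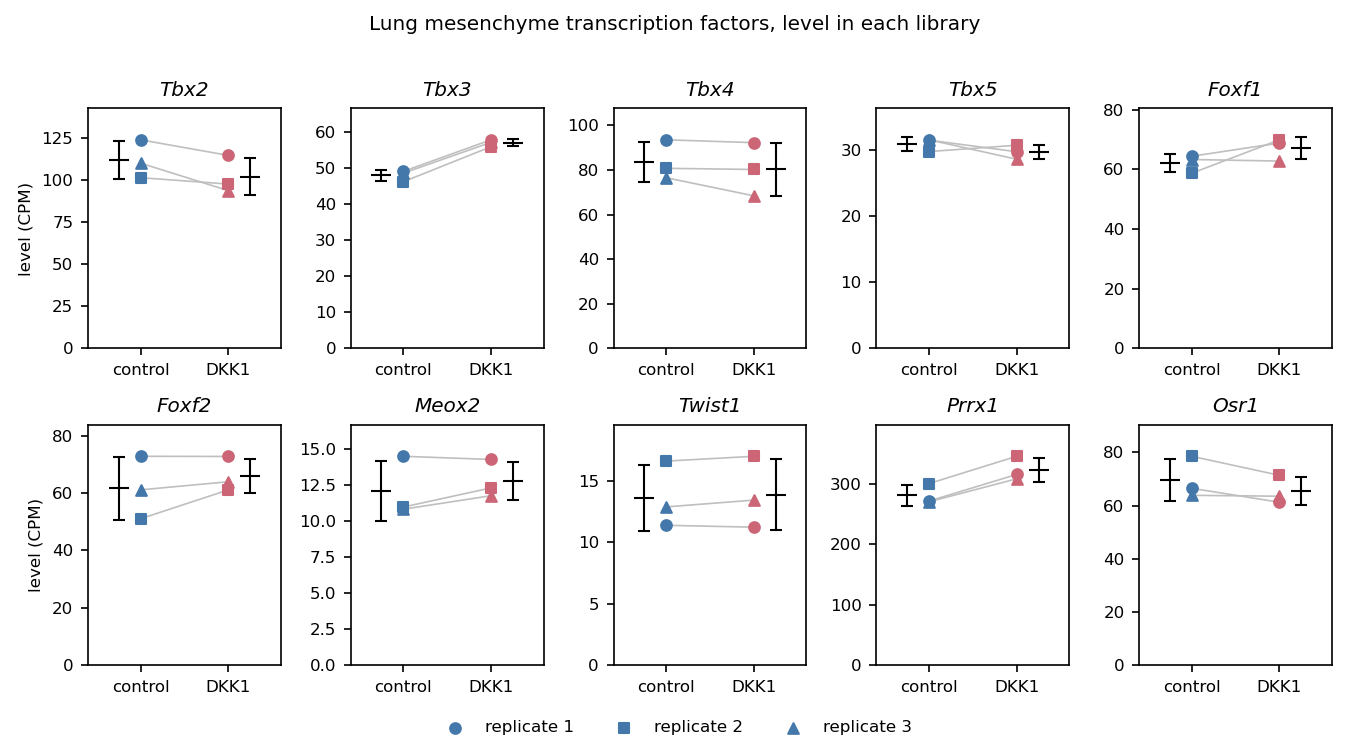
Level of each of the 10 factors in CPM (vertical axis, from 0) in the 3 control libraries (blue) and the 3 DKK1 libraries (red). The marker shape gives the replicate number, grey lines join libraries of the same number, and black bars show the mean ± SD of each group (n = 3). The Tbx3 points of the groups are separate (at most 49.2 CPM in control and at least 56.0 CPM with DKK1), as are those of Prrx1, while those of the other 8 genes overlap.

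Tbx3 (ENSMUSG00000018604, protein-coding, chr5:119670669-119684724, plus strand, GRCm38) encodes a T-box repressor with roles in growth control and in escape from senescence. It measured 49.2, 46.3 and 48.7 CPM in control replicates 1 to 3 and 58.0, 56.0 and 57.2 CPM in DKK1 replicates 1 to 3. Every DKK1 library was above every control library, and the spread within each group was narrow. The group means were 48.1 ± 1.54 and 57.1 ± 0.971 CPM (SD, n = 3 each), which gave a log2 fold change of 0.24 (standard error, SE, 0.04, 95% interval 0.15 to 0.34, edgeR adjusted p = 0.0344). The same-numbered pairs differed by 0.24, 0.28 and 0.23 on the log2 scale. With the replicate block the log2 fold change was again 0.24 (adjusted p = 0.00051). The unpaired call was lost when any 1 of the 6 libraries was left out, controls included, with adjusted p-values of 0.0767 to 0.164 and log2 fold changes of 0.22 to 0.26. The antisense gene Tbx3os1 overlaps its exons on the opposite strand, but held only 4 to 14.0 counts per library, against 1103 to 1946 for Tbx3.

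Tbx2 (ENSMUSG00000000093, chr11:85832551-85841948, plus strand) encodes the closest relative of TBX3, a repressor of cell cycle inhibitor genes in the embryonic lung. Its levels were 124, 101 and 110 CPM in control replicates 1 to 3 and 114, 97.5 and 93.6 CPM in DKK1 replicates 1 to 3. The groups overlapped, because replicate 1 was the highest of both groups, but each DKK1 library was below the control library of the same number. Group means were 112 ± 11.3 and 102 ± 11.1 CPM (SD, n = 3 each), with a log2 fold change of -0.14 (SE 0.09, 95% interval -0.34 to 0.07, edgeR adjusted p = 0.68) without the block. The log2 fold change of Tbx2 in that fit was -0.05 without control replicate 1 and -0.23 without DKK1 replicate 1, the ends of its range when 1 library was left out. In the fit with the replicate block Tbx2 fell by 0.13 on the log2 scale (SE 0.03, adjusted p = 0.023). Leaving out both replicate 3 libraries ended that call, with a log2 fold change of -0.09 in edgeR (adjusted p = 0.152), and DESeq2 with the block did not call it (adjusted p = 0.24).

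The ratio of Tbx3 to Tbx2, both per kilobase of gene model, was 0.218, 0.25 and 0.243 in control replicates 1 to 3. With DKK1 it was 0.277, 0.315 and 0.335. Tbx2 transcripts outnumbered those of Tbx3 in all 6 libraries, and the ratio was higher in each DKK1 library than in any control library. No test was made of this ratio.

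Tbx4 (ENSMUSG00000000094, chr11:85886422-85916097) lies 44473 bases beyond Tbx2 on the same strand, and Tbx5 (ENSMUSG00000018263, chr5:119832668-119885219) lies 147943 bases beyond Tbx3, an arrangement left by duplication of an ancestral pair. Tbx4, which marks lung fibroblast precursors, measured 93.5, 80.7 and 76.5 CPM in control replicates 1 to 3 and 92.2, 80.2 and 68.4 CPM with DKK1. The values followed the replicate number more than the treatment, and the log2 fold change was -0.06 (95% interval -0.31 to 0.19, adjusted p = 0.915 in edgeR). Tbx5 measured 31.6, 29.8 and 31.6 CPM in control and 29.8, 30.8 and 28.7 CPM with DKK1, in groups that overlapped. Its log2 fold change was -0.06 (95% interval -0.18 to 0.05, adjusted p = 0.747). The ratio of Tbx5 to Tbx4 per kilobase was 0.245 to 0.301 in control and 0.235 to 0.305 with DKK1, so the groups covered the same range. Tbx3 was thus called and its neighbour Tbx5 was not; whether their responses differ was not tested.

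Tbx2 and Tbx3, like the forkhead pair, share short runs of coding sequence. The longest run of identical bases in the coding sequences is shown for each pair, in capitals, with 15 bases on either side in lower case, read 5′ to 3′ on the plus strand from GENCODE M21 transcripts (GRCm38). For Tbx2 (exon 1, run at chr11:85833431-85833444) and Tbx3 (exon 1, run at chr5:119672334-119672347) the run was 14 bases long. For Foxf1 (exon 1, chr8:121084657-121084697) and Foxf2 (exon 1, chr13:31626494-31626534) it was 41 bases.
Tbx2: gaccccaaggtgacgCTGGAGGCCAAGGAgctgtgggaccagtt
Tbx3: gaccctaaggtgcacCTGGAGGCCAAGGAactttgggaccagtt
Foxf1: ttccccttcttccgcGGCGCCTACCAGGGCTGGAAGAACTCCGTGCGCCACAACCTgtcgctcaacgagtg
Foxf2: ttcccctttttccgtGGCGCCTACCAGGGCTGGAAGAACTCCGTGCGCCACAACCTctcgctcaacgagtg
RSEM, named in the submitters' processing notes, divides reads that match several genes, which leaves counts that are not whole. The expected counts of Tbx2, Tbx4, Tbx5, Meox2, Twist1, Prrx1 and Osr1 were whole in all 6 libraries, and those of Tbx3, Foxf1 and Foxf2 were whole in 5 of 6. In DKK1 replicate 2, Tbx3 (1945.96) and its antisense gene Tbx3os1 (14.04) were not whole. Foxf2 (2120.94) and Gm27516 (0.06), which overlaps Foxf2 exons on the opposite strand, were not whole there either. In DKK1 replicate 3 this held for Foxf1 (1446.48) and Gm27530 (1.52), which overlaps Foxf1 exons on the opposite strand. The paralog was whole in each case. How the reads were divided was not tested.

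Foxf1 (ENSMUSG00000042812, chr8:121084386-121088144, plus strand) measured 64.3, 58.7 and 63.3 CPM in control replicates 1 to 3 and 68.8, 69.9 and 62.7 CPM with DKK1. The DKK1 values of replicates 1 and 2 were above all control values, while that of replicate 3 was not. The log2 fold change was 0.11 (SE 0.06, 95% interval -0.02 to 0.24, edgeR adjusted p = 0.556 without and 0.149 with the replicate block). In the blocked fit the log2 fold change of Foxf1 was 0.04 without both replicate 2 libraries and 0.17 without both replicate 3 libraries, where it was called (edgeR adjusted p = 0.049). Leaving out 1 library in the unpaired fit gave 0.07 to 0.16. The gene Gm20388 overlaps Foxf1 on the same strand without sharing exon bases. It held 38.3 to 704 counts per library, against 1433 to 2426 for Foxf1. Foxf2 (ENSMUSG00000038402, chr13:31625816-31631403) measured 72.8, 51.0 and 61.1 CPM in control and 72.7, 61.1 and 63.9 CPM with DKK1, in overlapping groups. Its log2 fold change was 0.09 (95% interval -0.18 to 0.37, adjusted p = 0.856). The forkhead pair was present at similar levels per kilobase, with a ratio of Foxf1 to Foxf2 of 0.865 to 1.13 in control and 0.925 to 1.12 with DKK1. Fendrr, a long noncoding RNA gene whose start lies 1275 bases from that of Foxf1 on the opposite strand, was found at 6.07 ± 0.58 CPM in control and 5.80 ± 0.463 CPM with DKK1 (SD, n = 3 each; log2 fold change -0.07, edgeR adjusted p = 0.913).

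Prrx1 (ENSMUSG00000026586, chr1:163245119-163313710, minus strand) encodes a paired-related homeodomain factor of limb, craniofacial and lung mesenchyme. It measured 272, 301 and 271 CPM in control replicates 1 to 3 and 316, 346 and 309 CPM with DKK1. All DKK1 libraries were above all control libraries, and replicate 2 was the highest of each group. Group means were 281 ± 17.1 and 324 ± 19.8 CPM (SD, n = 3 each), which gave a log2 fold change of 0.20 (SE 0.06, 95% interval 0.06 to 0.33). This was not called without the block (edgeR adjusted p = 0.244), but it was with the block (SE 0.02, edgeR adjusted p = 2.87e-05). The differences within the same-numbered pairs were 0.22, 0.20 and 0.19 on the log2 scale. The blocked call held when each pair of same-numbered libraries was left out in turn, with log2 fold changes of 0.19 to 0.20. Tbx3 and Prrx1 were the 2 factors whose groups did not overlap, beside 16.5% of all tested genes (9.4% with DKK1 higher), and the 2 with an unadjusted p under 0.05, beside 10.6%.

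The sequence at the start of Prrx1 is given because, of the 3 factors called with the block, it is the one matched in the RefSeq promoter table (GRCm38.p6), which held 5 of the 10 factors (Foxf2, Meox2, Prrx1, Tbx4 and Twist1). The window runs from 250 bases before to 50 bases after the start, chr1:163313601-163313900 on the minus strand, printed 5′ to 3′ with the match in capitals.
Prrx1: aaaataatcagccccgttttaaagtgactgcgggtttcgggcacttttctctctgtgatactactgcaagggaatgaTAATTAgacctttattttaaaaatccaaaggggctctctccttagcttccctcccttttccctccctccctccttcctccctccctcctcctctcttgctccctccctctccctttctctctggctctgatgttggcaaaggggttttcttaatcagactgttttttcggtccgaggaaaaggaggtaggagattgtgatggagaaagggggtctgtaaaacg
The capitals mark TAATTA, the core letters bound by many homeodomain factors, which were found in 5.31% of 27025 promoters of the same length. These letters were added to the search after the sequence had been seen. Other letters searched on both strands were CTTTGA of the TCF/LEF factors (16.2% of all promoters), TGTTTA of forkhead factors (13.4%), GGTGTGA of T-box factors (3.96%), the E-box CATCTG (17.2%) and the NF-kB consensus (4.35%). Among the 5 windows the E-box letters were found in that of Tbx4, and the TCF/LEF, forkhead, T-box and NF-kB letters in no window. The Tbx4 window (chr11:85896515-85896814) lies inside the gene model given above, not at its start. A match is a description of letters and says nothing of binding. The window of Prrx1 was 47.7% G and C, and those of the other 4 were 59.0% to 71.3%, beside a median of 52.7% over all promoters.

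Meox2, Twist1 and Osr1 were called in neither fit. Meox2 (ENSMUSG00000036144, chr12:37108540-37179534), a homeobox factor of mesoderm, measured 14.5, 10.97 and 10.8 CPM in control replicates 1 to 3 and 14.3, 12.3 and 11.8 CPM with DKK1. Twist1 (ENSMUSG00000035799, chr12:33957671-33959829), a basic helix-loop-helix factor known for epithelial to mesenchymal transition, measured 11.4, 16.6 and 12.9 CPM in control and 11.2, 17.0 and 13.4 CPM with DKK1. For Twist1 the replicate number carried nearly all of the variation: replicate 2 exceeded replicate 1 by 0.55 on the log2 scale in control and by 0.60 with DKK1, while the log2 fold change with DKK1 was 0.02 (95% interval -0.39 to 0.43, edgeR adjusted p = 0.987). Osr1 (ENSMUSG00000048387, chr12:9570116-9581500) measured 66.5, 78.6 and 63.9 CPM in control and 61.3, 71.4 and 63.5 CPM with DKK1. All 3 same-numbered pairs had the lower value in the DKK1 library, though the groups overlapped, with a log2 fold change of -0.10 (95% interval -0.30 to 0.11, edgeR adjusted p = 0.779 without and 0.123 with the replicate block). A same-way difference in 3 of 3 pairs was seen for 5 factors (Tbx3 and Prrx1 higher, Tbx2, Tbx4 and Osr1 lower), beside 41.8% of all tested genes (22.3% higher and 19.5% lower).

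**Figure D2:**
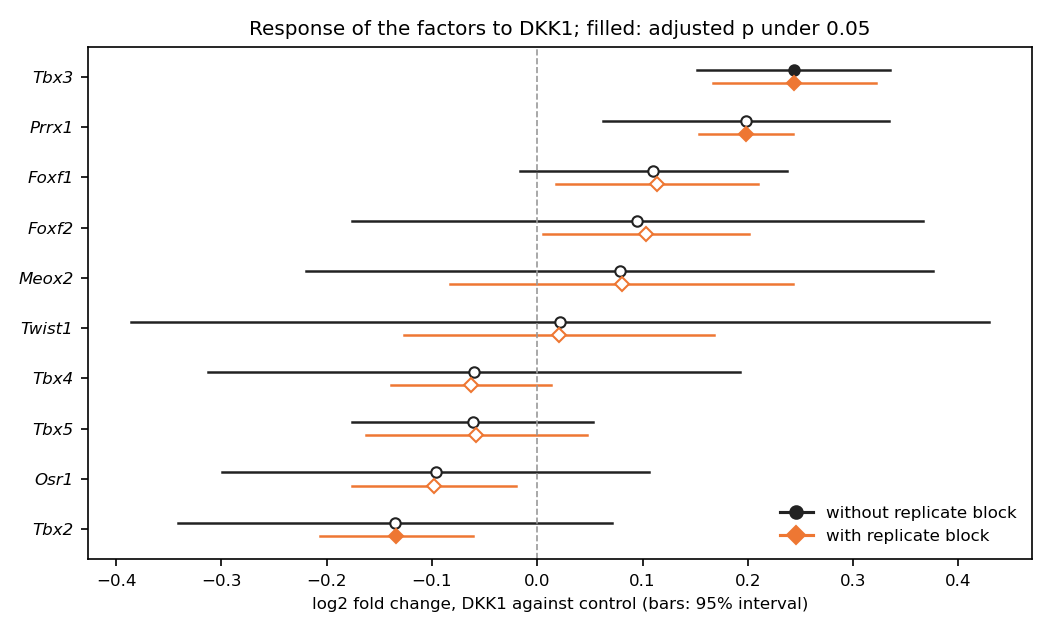
Log2 fold change of each factor, DKK1 against control (horizontal axis), with 95% intervals as bars, from the edgeR fit without (black circles) and with (orange diamonds) the replicate block. Filled symbols mark an adjusted p under 0.05: Tbx3 in both fits, and Prrx1 (0.20) and Tbx2 (-0.13) with the block.

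The replicate number ordered many of the factors alike in both groups. Tbx2, Tbx3, Tbx4, Foxf2 and Meox2 were highest in replicate 1 of both groups, and Twist1, Prrx1 and Osr1 were highest in replicate 2 of both groups. Tbx5 and Foxf1 had their highest value in differently numbered replicates. The range between replicates of the control group was widest for Twist1 and Foxf2 (0.55 and 0.51 on the log2 scale) and narrowest for Tbx5 and Tbx3 (0.08 and 0.09). Among these 10 factors only Tbx3 and Prrx1 had a log2 fold change with DKK1 larger than the range between control replicates, which was 0.15 for Prrx1.

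Levels were set side by side per kilobase of gene model and scaled to the same total in each library (TPM). On this scale 6 factors stood together in control cells: Osr1 at 122 ± 14.2, Tbx2 at 111 ± 11.5, Foxf2 at 94.3 ± 16.8, Foxf1 at 92.9 ± 4.39, Prrx1 at 91.8 ± 5.88 and Tbx4 at 88.8 ± 9.78 TPM (SD, n = 3 each). Neighbours in this order overlapped between libraries. A gap followed, and the other 4 factors were lower: Twist1 at 30.3 ± 6.04, Tbx3 at 26.2 ± 0.805, Tbx5 at 24.0 ± 0.726 and Meox2 at 18.5 ± 3.25 TPM. Twist1 and Tbx3 overlapped, whereas Tbx3 and Tbx5, and Tbx5 and Meox2, did not. The order within both groups rests on the length used: with the longest transcript (6527 bases for Prrx1) in place of the union of exons (11066 bases), Prrx1 came first at 113 ± 7.24 TPM. Tbx3 (25.3 ± 0.777 TPM) then also came before Twist1 (21.98 ± 4.39 TPM). The division into 6 higher and 4 lower factors was the same with either length. In DKK1 cells Tbx3 was at 30.9 ± 0.693 TPM and Prrx1 at 105 ± 6.66 TPM.

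**Figure D3:**
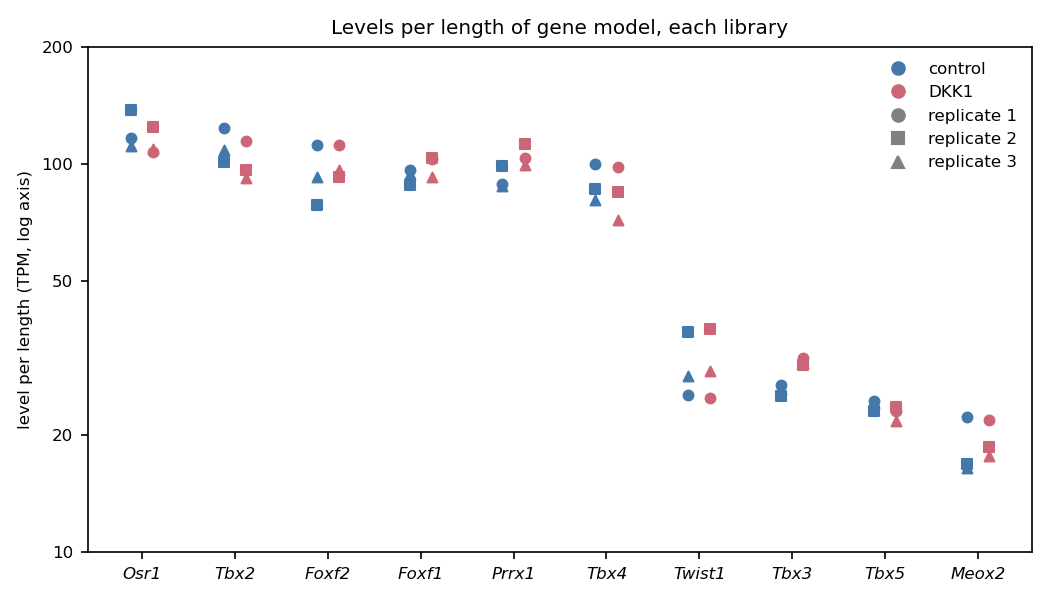
Level per length of each factor in TPM (vertical log axis) in every library, with control in blue, DKK1 in red and the replicate number as marker shape. The factors are ordered by their control mean. Osr1 to Tbx4 lie between 71.5 and 138 TPM, and Twist1 to Meox2 between 16.4 and 37.5 TPM.

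Of 13 other T-box genes, 5 were expressed enough to test and 0 were called in edgeR, without or with the block; 0 of the 5 had an unadjusted p under 0.05 without the block, and DESeq2 called 0. Tbx18, a factor of mesothelium-derived and perivascular mesenchyme, was found at 16.2 ± 1.99 CPM in control and 18.5 ± 2.26 CPM with DKK1 (SD, n = 3 each; log2 fold change 0.19, edgeR adjusted p = 0.647), and its expected counts were whole in 0 of 6 libraries. Tbx19, Tbx22 and T, the brachyury gene, were at 0 in all libraries.

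The median log2 fold change of other mesenchymal transcription factors was 0.05. Of the 32 listed, 31 were tested and 0 were called without the block (3 had an unadjusted p under 0.05, and DESeq2 called 0), while with the block 3 rose and 2 fell, beside 9.42% of all tested genes. DESeq2 with the block called 0 of the 31, as did the blocked edgeR fit without both replicate 2 libraries, and without both replicate 1 libraries it called 2 (Foxp1 and Meis1). Those that rose with the block were Foxp1 (1.08-fold, edgeR adjusted p = 0.00926), Meis1 (1.11-fold, adjusted p = 0.0126) and Zeb2 (1.07-fold, adjusted p = 0.0458), a repressor of epithelial genes. Those that fell were Foxs1 (0.832-fold, adjusted p = 0.0221), a forkhead gene of perivascular cells, and Prrx2 (0.88-fold, adjusted p = 0.0471), the paralog of Prrx1. Tcf21, a marker of lipid-storing lung fibroblasts, was at 28.4 ± 2.37 CPM in control and 30.5 ± 3.12 CPM with DKK1 (SD, n = 3 each; adjusted p = 0.754).

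Among 23 genes of the signals that act around these factors in lung development, 22 were tested, and Fgf7 was called without the block. With the block 5 were called, all higher: Fgf7, Fgf10, Wnt11, Rarb and Fgfr1, beside 4.96% of all tested genes called higher. DESeq2 with the block called 2 (Fgf7 and Fgf10), and so did the blocked edgeR fit without both replicate 2 libraries. Fgf7, a fibroblast ligand for the epithelial receptor FGFR2, rose 1.35-fold, from 138 ± 7.79 CPM in control (SD, n = 3) to 187 ± 4.68 CPM with DKK1 (SD, n = 3) (log2 fold change 0.44, SE 0.05, edgeR adjusted p = 0.00742), and kept its call when each library was left out in turn (adjusted p of 0.0102 to 0.0498). Fgf10, a target of TBX4 and TBX5, measured 39.4, 35.4 and 32.4 CPM in control replicates 1 to 3 and 47.1, 42.9 and 38.9 CPM with DKK1. The Fgf10 groups overlapped slightly, and each pair was higher with DKK1. Its log2 fold change of 0.26 was called only with the block (adjusted p = 0.31 without and 0.000669 with it). Wnt2, an early lung mesenchyme ligand, was at 2.92 ± 0.772 CPM in control and 2.55 ± 0.512 CPM with DKK1 (adjusted p = 0.852), and Bmp4, a forkhead-dependent ligand, at 28.4 ± 1.74 and 26.04 ± 3.01 CPM (adjusted p = 0.668).

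Genes listed as repressed by TBX2 and TBX3 in embryonic lung (Cdkn1a, Cdkn1b, Cdkn2a, Frzb, Shisa3, Il33 and Ccn4) were all tested. Of the 7, Frzb was called without the block, beside 0.895% of all tested genes, and with it Frzb and Il33 rose and Ccn4 fell, beside 9.42%. Frzb, a secreted Wnt antagonist, measured 22.2, 23.6 and 22.3 CPM in control replicates 1 to 3 and 39.3, 36.7 and 35.2 CPM with DKK1, a 1.62-fold rise (log2 fold change 0.70, SE 0.06, edgeR adjusted p = 0.0022) with no overlap of the groups. Il33, an alarmin cytokine gene, was low, at 1.46 ± 0.391 CPM in control and 2.74 ± 0.978 CPM with DKK1 (SD, n = 3 each; log2 fold change 0.90, edgeR adjusted p = 0.324 without and 0.0109 with the block). The blocked call of Il33 was lost in DESeq2 with the block and in the blocked edgeR fit without both replicate 2 libraries. Ccn4, a matricellular Wnt target gene, was at 447 ± 65.7 and 392 ± 56.8 CPM (log2 fold change -0.19, adjusted p = 0.677 without and 2.42e-05 with the block). Cdkn1a, the p21 cell cycle inhibitor gene, had a log2 fold change of 0.05 (95% interval -0.09 to 0.18, adjusted p = 0.859). The list was drawn up with earlier results for these data known, among them that of Frzb.

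**Figure D4:**
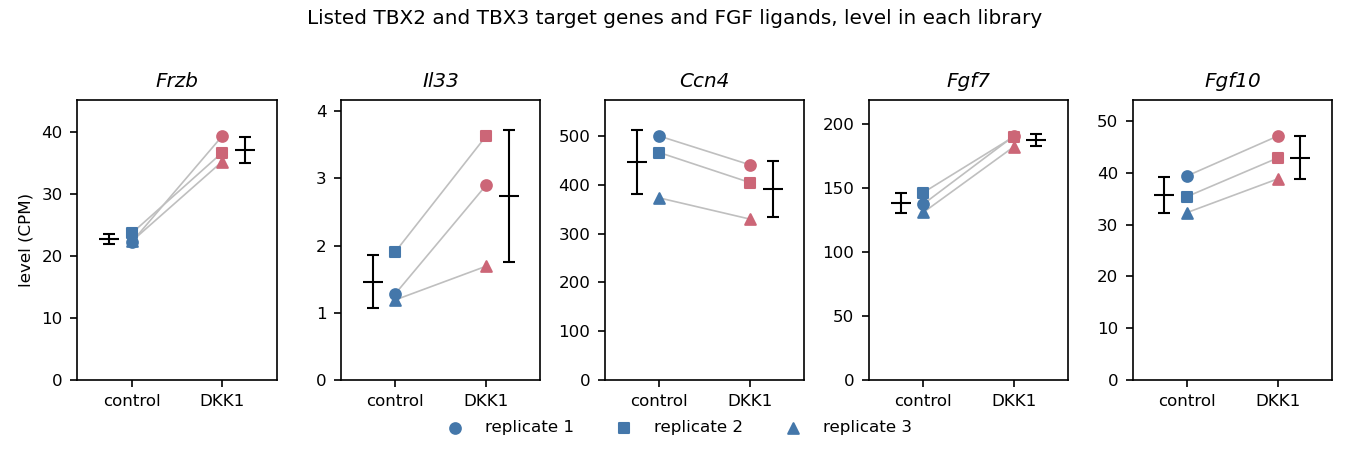
Level in CPM (vertical axis, from 0) of 3 listed target genes of TBX2 and TBX3 (Frzb, Il33, Ccn4) and 2 fibroblast growth factor genes (Fgf7, Fgf10) in control (blue) and DKK1 (red) libraries, with marker shapes for replicate numbers, grey lines joining the same numbers and black bars for mean ± SD (n = 3). Frzb and Fgf7 separate between the groups, and Il33 and Fgf10 are higher and Ccn4 lower within each pair.

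For the 2 factors with the smallest unadjusted p, the genes with the most similar profile were sought among 9222 tested genes averaging 10 CPM or more, by the root-mean-square distance of log2 levels over the 6 libraries, each centred on its own mean. The nearest to Tbx3 were Nectin2 (distance 0.02), Tedc2 (0.02) and Hsd3b7 (0.03). Nearest to Prrx1 were Nfatc4 (0.02), Osmr (0.03) and Sdc4 (0.03). Likeness of profile is a description of 6 libraries that share the treatment and the replicate numbers, and genes chosen by it differ between the groups as Tbx3 and Prrx1 do by construction.

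Some genes listed as markers of other cell types also differed between the groups. Which cells held these transcripts was not tested. Smooth muscle and pericyte markers were below 0 in log2 fold change for 7 of 7 genes, with Myh11 called lower without the block (beside 0.198% of all tested genes) and 5 genes with it (Myh11, Acta2, Des, Cnn1 and Cspg4, beside 4.46%). Of 5 tested leukocyte markers 0 were called without the block (1 had an unadjusted p under 0.05, and DESeq2 called 0), and with it Itgam (2.10-fold) and Adgre1 (1.46-fold) rose and Csf1r (0.839-fold) fell, beside 9.42% of all tested genes. Ptprc and Cd68 were not called, with log2 fold changes of -0.14 and -0.20 without the block. DESeq2 with the block called Itgam alone of the 5, and the Csf1r call was also lost in the blocked edgeR fit without both replicate 2 or both replicate 3 libraries. The summed leukocyte markers ran from 55.2 to 98.7 CPM in control and from 67.2 to 113 CPM with DKK1. Mitochondrial transcripts made up 1.49% to 1.55% of counts in control and 1.63% to 1.70% with DKK1. The part of these shifts in the results for Tbx3, Prrx1 and Tbx2 was not tested. Without both replicate 3 libraries, which held the most endothelial, epithelial, mesothelial and leukocyte marker counts, the log2 fold change of Tbx3 was 0.25 (adjusted p = 0.127 unpaired and 0.00428 with the block) and the log2 fold change of Prrx1 was 0.20 (adjusted p = 0.333 and 0.000412). The log2 fold change of Tbx2 was -0.09 in both of these fits (adjusted p = 0.855 unpaired and 0.152 with the block), so its blocked call was lost.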

How the data were processed

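RNA sequencing of 3 control and 3 DKK1-treated mouse lung fibroblast samples was analysed from the deposited table of RSEM expected counts per gene. The submitters' processing notes name STAR, RSEM, edgeR 4.2.1 and the builds GRCm38 and mm10, without stating the role of each; strandedness is not given in the sources used here, so reads of a gene and of an antisense partner cannot be told apart. Expected counts were rounded to whole numbers and tested with edgeR 4.0.16 (R 4.3.3; TMM factors, filterByExpr with a minimum count of 10, quasi-likelihood F test, group as the only term), with Benjamini-Hochberg adjustment over all tested genes and a threshold of 0.05. The procedure was tested on simulated data with planted changes larger than those of the factors and with no shared replicate effect. That test does not show how well changes of their size are found, or what the block does in these data. Standard errors were the log2 fold change over the square root of F, and 95% intervals used the degrees of freedom from edgeR. CPM used whole library totals, of 22565917 to 34727102. A count of 3 corresponds to 0.0864 to 0.133 CPM, and such floors cover counting error only, whereas the 95% intervals include the spread between samples.

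Sample titles number the replicates 1 to 3 in each group, without saying what a number shares. Deviations from the group means correlated between same-numbered samples at 0.27, 0.23 and 0.41 over 14635 genes, so the fit with the number as a block is given where it changes a call. Symbols were found for 98.8% of 45706 identifiers. Positions and lengths came from GENCODE M21 (GRCm38), whose transcript identifiers covered 98.7% of those in the table. TPM was recomputed per length of the union of exons. Promoter sequences came from RefSeq. A further sequence is not reported here.

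The members and lists were chosen with earlier results of these data known. All 10 factors were named with every value; from other lists, genes called in either fit were named, with Fendrr, Tcf21, Fgf10, Wnt2 and Bmp4, and the 3 genes nearest in profile to the 2 factors with the smallest p. Tbx18, Cdkn1a and the letters TAATTA were added after their values or sequences were seen. Alternatives were DESeq2 1.42.0 size factors, library totals, no filter, at least 10 counts in every sample, DESeq2, limma 3.58.1 with voom, unrounded counts, the block, and leaving out each library. Leaving out both replicate 3 libraries, and each pair in the blocked fit, was chosen after seeing the data.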

Additional observations from a re-analysis of the deposited data

How the results depend on the processing

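For DKK1 against control, all genes, the unpaired fit made 131 calls. Leaving out each library in turn gave 36 to 139 calls, and 0 to 0 of the 10 factors. The total was 329 with no low-count filter and 289 with DESeq2, both with Tbx3 as the 1 factor called. The replicate block gave 1379 calls and 3 factors (Prrx1, Tbx2 and Tbx3), and DESeq2 with the block 558 calls and 2 factors (Prrx1 and Tbx3). In the blocked fit without both replicate 1, 2 or 3 libraries there were 1312, 612 and 1060 calls. The factors called were then 4 (Foxf2, Prrx1, Tbx2, Tbx3), 3 (Prrx1, Tbx2, Tbx3) and 3 (Foxf1, Prrx1, Tbx3). Without both replicate 3 libraries and without the block, 0 factors were called. The direction of 5 factors turned when 1 library was left out: the log2 fold change ranged from -0.17 to 0.042 for Tbx4, from -0.026 to 0.23 for Foxf2, from -0.0101 to 0.23 for Meox2, from -0.16 to 0.20 for Twist1 and from -0.17 to 0.0035 for Osr1. That of the leukocyte marker Csf1r ranged from -0.45 to 0.0475. The cause was not tested. Of the 10 factors, none changed direction under the other alternatives. The lowest count of any factor in any library was 245 (Meox2).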
